A study of Mus musculus with 24 samples.

Results

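The 10 genes described here encode the chaperones of the cytosolic heat shock system and its small heat shock proteins (HSPs). They were taken by symbol, 10 of the 55335 genes counted in each library, and each symbol had 1 entry. *Hspa1a*, *Hspa1b* and *Hspa8* encode HSP70 proteins, *Hsph1* the HSP110 nucleotide exchange factor, *Dnajb1* an HSP40 cochaperone, *Hsp90aa1* and *Hsp90ab1* the cytosolic HSP90 proteins, and *Hspb1*, *Hspb8* and *Cryab* small HSPs. HSP70 binds unfolded stretches of a client protein in a cycle driven by ATP, which HSP40 proteins start and HSP110 helps to complete. HSP90 takes over partly folded clients, and small HSPs hold unfolded proteins in a soluble state without using ATP. Heat shock factor 1 induces *Hspa1a*, *Hspa1b*, *Hsph1*, *Dnajb1* and *Hsp90aa1* under proteotoxic stress, whereas *Hspa8* and *Hsp90ab1* are abundant in unstressed cells and *Cryab* is best known from lens and muscle.

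The cells were primary osteoblasts (OBs) from parietal bones of pups aged 4 to 5 days, grown in a medium with serum and ascorbic acid 2-phosphate. Every group carries the treatment label osteogenic differentiation. The mice were of the C57BL/6J background, on which the G610C line was kept. Whether WT pups came from that line or from stock mice is not stated in the paper. In Het G610C cells, 1 of 2 alleles of *Col1a2*, which encodes the procollagen α2(I) chain, has a triple helical glycine replaced by cysteine. RNASeq counts were available from 24 libraries, 4 per genotype on each of 3 days (8, 14 and 21) counted from seeding, and no heat, drug or other acute stress was applied. Cells of several pups were pooled by genotype before plating, in 2 experiments with other litters, another plating density and other oxygen in the first days. By the methods these made 3 wells per genotype and day, while the labels number 4 replicates, so how the 4 libraries of a group relate to the wells is not known. The labels do not tell which replicate number came from which experiment. As cells were pooled, replicates are not separate animals, and p-values measure only the spread between these libraries from 2 experiments. The substitution itself cannot be seen in counts per gene, and the cultures also hold cells that make no collagen I.

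Libraries held 17140202 to 59734231 counts, and in each of the 6 groups replicate 1 was the shallowest (17140202 to 25825762, against 28159342 to 59734231 for the others). Values below are RQ times 1000, where RQ is a gene's count relative to 4 housekeeping genes of the same library (the geometric mean over *Sdha*, *Mrfap1*, *Actb* and *Actg1*). On this scale the median gene lay 0.16 higher on the log2 scale at days 14 and 21 than at day 8, and with TMM scaling 0.02 lower. All 6 osteoblast markers examined rose from day 8 to the later days (*Bglap* by 7.54 and *Ibsp* by 5.33 on the log2 scale), as did 6 of 7 macrophage and osteoclast markers. The summed RQ × 1000 of the latter list spanned 698 to 762 in WT libraries of day 8 and 697 to 1313 in Het ones. In the later libraries it spanned 2052 to 6672 in WT and 3064 to 15621 in Het cells. All 5 chondrocyte markers fell, from a sum of 5497 to 34579 at day 8 to 1158 to 22964 later. In these bulk libraries, fewer cells of a type and less RNA per cell cannot be told apart.

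The upstream sequences of the inducible members are shown first because heat shock factors bind arrays of the unit GAA and its complement TTC. RefSeq's promoter table (GRCm38.p6) held 6 of the 10 members: *Hspa1a*, *Hspa1b*, *Hsph1*, *Dnajb1*, *Hspb1* and *Hspb8*. The 250 bases before each start were searched for GAANNTTC and TTCNNGAA, overlaps allowed. Each of these patterns is its own reverse complement, so both strands were covered. Capitals mark the matches in the stretches below, which read 5′ to 3′ on the strand of the gene.
Hspa1a (chr17:34972227-34972286, minus strand): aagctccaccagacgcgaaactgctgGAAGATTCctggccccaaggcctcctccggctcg
Hspa1b (chr17:34959309-34959368, minus strand): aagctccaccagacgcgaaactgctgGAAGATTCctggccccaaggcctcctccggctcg
Hsph1 (chr5:149636336-149636395, minus strand): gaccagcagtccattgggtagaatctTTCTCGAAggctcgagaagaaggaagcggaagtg
Hspb1 (chr5:135887776-135887855, plus strand): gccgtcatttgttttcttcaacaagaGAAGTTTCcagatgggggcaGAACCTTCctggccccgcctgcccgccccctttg
The *Hspa1a* and *Hspa1b* stretches are identical, with the match 104 bases before the start, and over the full 250 bases the pair differed at 3. In *Hsph1* the match began 54 bases before 1 of its listed starts and 33 before the other. *Hspb1* held 2 matches, 117 and 97 bases before the start. No match was found for *Dnajb1* or *Hspb8* in this window. At least 1 match was present in 4 of the 6 members searched and in 4212 of all 32817 windows of the table (12.83%). At least 2 were present in 475 windows (1.45%). A match alone does not show a binding site, and whether a heat shock factor binds at any of these matches was not tested.

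The summed counts of the 10 members made up 0.198% to 0.416% of each library, but their levels differed widely. Levels were compared between genes as RQ × 1000 per kb of exon. Exon length counts every annotated exon base of a gene, for *Hsph1* 7266 bases over 11 transcripts. Which transcripts the cells made was not examined, so the order of near neighbours and the size of ratios between genes are uncertain. *Hsp90ab1* ranked first in all 6 groups, with 916 ± 51.2 (SD, n = 4) in WT cells at day 8 and 635 ± 44.2 at day 21. *Hspa8* ranked second, with 574 ± 49.1 and 350 ± 22.4 in the same groups. In each group the libraries of these 2 genes did not overlap with one another or with those of the next gene. *Hsp90aa1*, the stress-inducible HSP90, stood at 161 in WT cells at day 8 and at 124 at day 21, both as the mean of 4 libraries. The inducible HSP70 genes lay at the bottom of the order, *Hspa1b* at 2.64 and *Hspa1a* at 1.03 in WT cells at day 8.

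**Figure D1:**
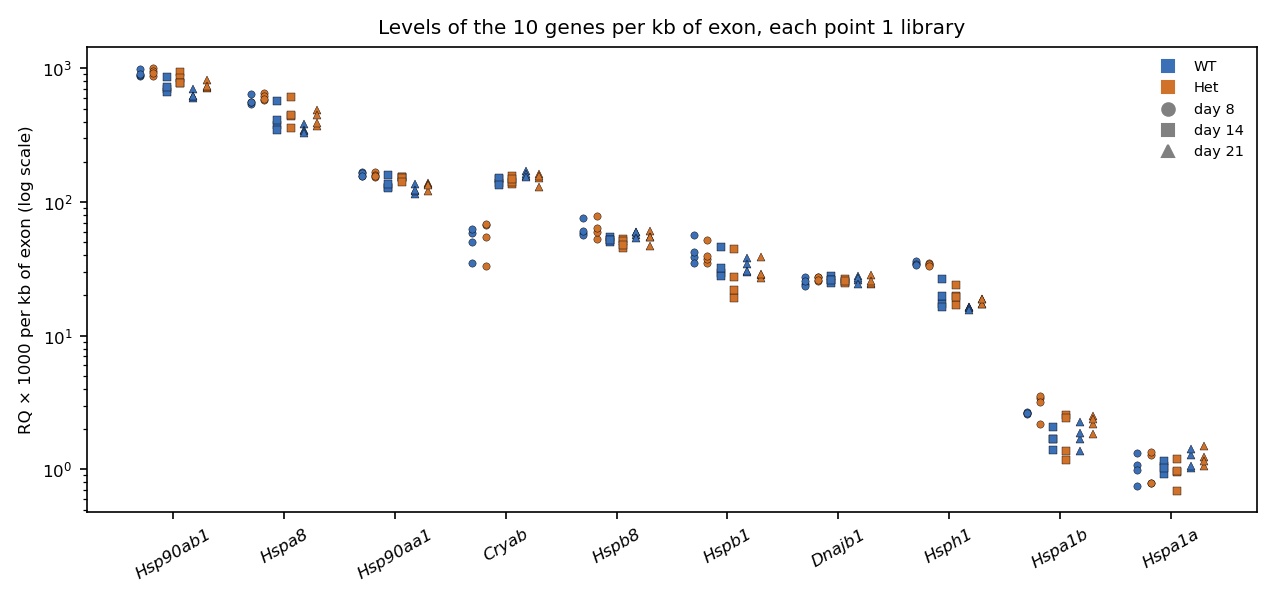
Level of each member in each of the 24 libraries, as RQ × 1000 per kb of exon on a log axis, with WT libraries in blue and Het libraries in orange. *Hsp90ab1* and *Hspa8* form the top of the order, *Hspa1b* and *Hspa1a* the bottom, and *Cryab* is the member whose libraries spread furthest along the axis.

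*Cryab* changed place in this order. At day 8 it held rank 5 in both genotypes, with 51.6 ± 12.1 in WT and 55.7 ± 16.4 in Het cells, and its libraries overlapped with those of its neighbours *Hspb8* and *Hspb1*. At day 21 it held rank 3, with 161 ± 7.9 in WT and 150 ± 14.0 in Het cells. Its libraries then lay above those of *Hsp90aa1* in WT cells and overlapped with them in Het cells. Its share of the summed level of the 10 members was 2.75% in WT cells at day 8 and 11.4% at day 21. *Hsph1* held rank 7 at day 8 and rank 8 at the later days, in both genotypes, behind *Dnajb1*. The neighbours *Hspb1* and *Hsph1* overlapped at day 8, *Dnajb1* and *Hsph1* overlapped in WT cells at day 14, *Hspb1* and *Dnajb1* overlapped in WT cells at day 14 and in Het cells at days 14 and 21, and *Hspa1b* and *Hspa1a* overlapped in Het cells at day 14 and in WT cells at day 21.

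Some of these genes share sequence with others, which limits what their counts can tell. Of the 50-base words of *Hspa1a* transcripts 66.31% also occur in another gene, 58.81% in *Hspa1b*, so reads of the pair are in part not separable. The shares were 50.1% for *Hspb1*, 47.49% for *Hsp90aa1* and 39.38% for *Hspa8*, mostly with *Hsp25-ps1*, *Gm12346* and *Gm15459*. Those genes held 0.849%, 0.556% and 0.883% as many counts as the member. *Hsph1* and *Hspb8* shared no such word. *Cryab* shares 252 exon bases, 17.04% of its exon length, with *Hspb2* on the opposite strand, and *Hspa1a* shares 19.01% with *Gm20481*, also on the opposite strand. *Hspb2* held 9.81% as many counts as *Cryab*, and *Gm20481* held 50.6% as many as *Hspa1a*. How strand and reads with several matches were treated is not given in the sources used here. These count shares therefore do not tell how many reads were dropped or assigned to the other gene. *Hspa1a* also had few reads, 18 to 116 per library, and *Hspa1b* 29 to 285.

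The first comparison asks how the members differ between day 8 and days 14 and 21. By the paper, cells at day 8 were newly confluent with less *Col1a1* mRNA, and the later days were a steady state of matrix synthesis. Of the 10 members, 7 fell and 1 rose. Among all 20434 genes tested, 58.3% were called, 40.9% higher and 17.4% lower at the later days, so a call as such was common and a lower call was less so. The split was 8351 higher and 3560 lower, and with TMM 5601 and 6692, with 1 member higher and 8 lower. The median change of the members was −0.29 on the log2 scale, beside 0.16 for all genes tested. All adjusted p-values for this and the following comparisons come from edgeR's quasi-likelihood test with Benjamini-Hochberg adjustment over all genes tested.

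**Figure D2:**
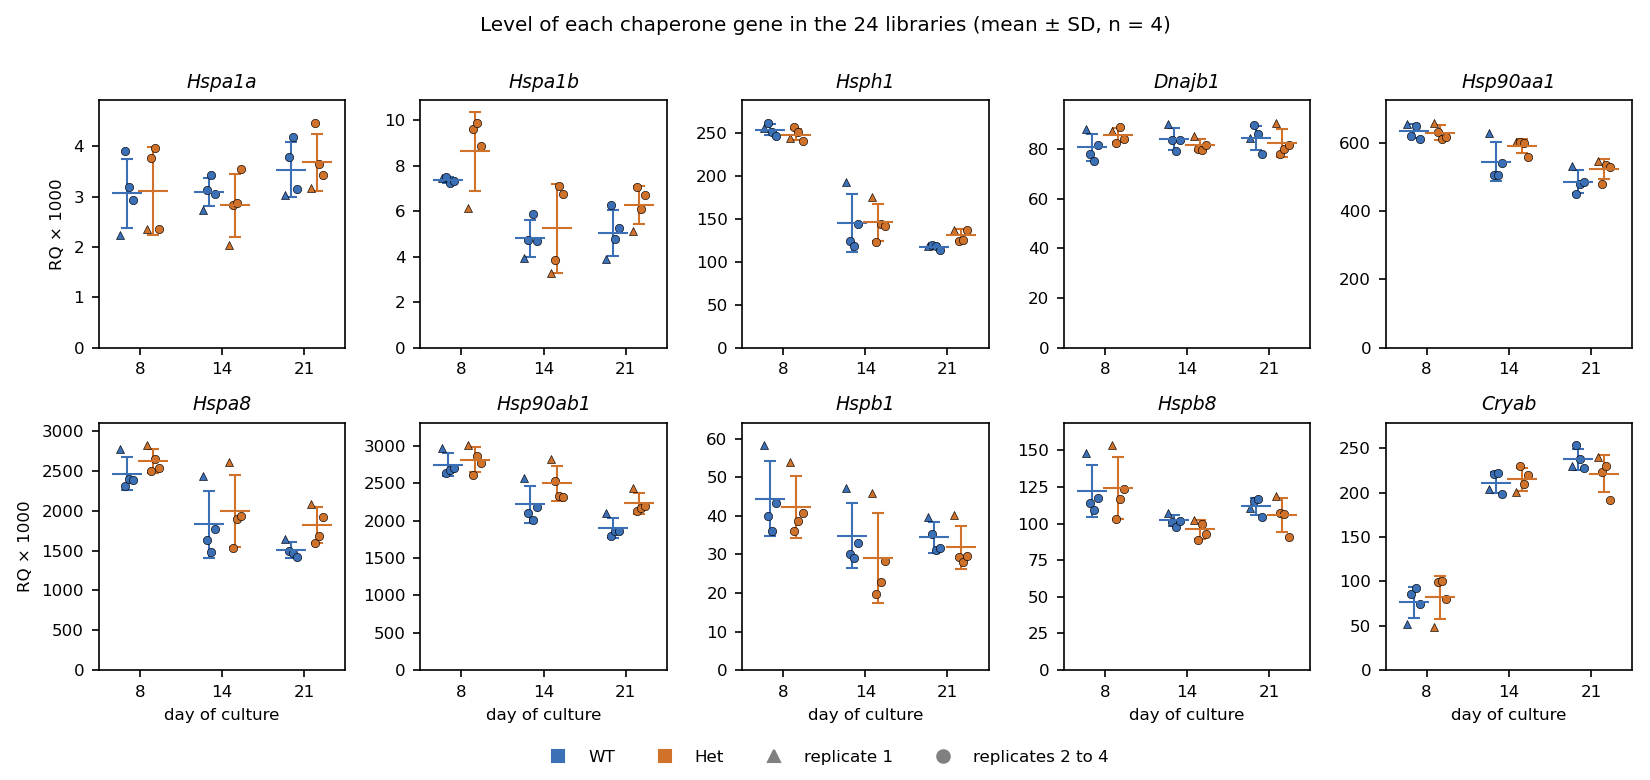
RQ × 1000 of each member (1 panel per gene, linear axes that differ between panels) against the day of culture in WT (blue) and Het (orange) libraries, with triangles for replicate 1, circles for replicates 2 to 4 and bars for the mean ± SD of 4 libraries. *Cryab* is higher and *Hsph1* lower in every library of days 14 and 21 than in any library of day 8, and the other 8 genes overlap between day 8 and the later days.

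*Hsph1*, the HSP110 partner of HSP70, fell the most. Its RQ × 1000 at day 8 was 256.0, 261.9, 250.6 and 246.3 in WT replicates 1 to 4 and 244.1, 256.2, 250.8 and 240.8 in Het replicates. At day 14 it was 193.3, 124.6, 118.7 and 143.8 in WT and 174.8, 123.2, 144.3 and 141.6 in Het replicates. At day 21 it was 118.2, 119.6, 117.9 and 113.3 in WT and 136.6, 124.5, 124.9 and 137.1 in Het replicates. No library of the later days reached the lowest of day 8, and the highest of day 14 was replicate 1 in each genotype. The change was −0.90 ± 0.07 on the log2 scale (SE), a fall of 46.5%, with an adjusted p of 1.72e-10 in edgeR's test. Per kb, *Hsph1* stood at 6.12 ± 0.52 (SD, n = 4) for each 100 of *Hspa8* in WT cells at day 8 and at 4.62 ± 0.24 at day 21.

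*Hspa8*, the constitutive HSP70, also fell, by 0.52 ± 0.09 on the log2 scale (adjusted p = 2.5e-05, edgeR). Its RQ × 1000 was 2778, 2308, 2393 and 2388 in WT and 2824, 2494, 2650 and 2538 in Het replicates at day 8. At day 14 it was 2436, 1631, 1485 and 1771 in WT and 2614, 1534, 1898 and 1928 in Het replicates. At day 21 it was 1644, 1491, 1468 and 1421 in WT and 2084, 1592, 1677 and 1921 in Het replicates. Replicate 1 was the highest of its group at all 3 days in both genotypes, and the day 14 libraries of replicate 1 alone reached into the range of day 8.

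The HSP90 genes moved the same way and less far. *Hsp90ab1*, the constitutive form, fell by 0.34 ± 0.05 on the log2 scale (adjusted p = 7.62e-06, edgeR), from a mean RQ × 1000 of 2780 at day 8 to 2212 later. *Hsp90aa1* fell by 0.24 ± 0.04 (adjusted p = 5.14e-05), from a mean of 631.1 to 535.5. The later libraries spanned 449.0 to 627.1 for *Hsp90aa1*, and only the highest of them overlapped with the 609.8 to 658.7 of day 8. Per kb, *Hsp90aa1* made up 17.1 to 19.5 for each 100 of *Hsp90ab1* as a mean of 4 libraries, over all 6 groups.

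Among the most inducible members the picture was mixed. *Hspa1b* fell by 0.58 ± 0.13 on the log2 scale (adjusted p = 0.000455, edgeR). Its RQ × 1000 was 7.2 to 7.5 in the 4 WT libraries and 6.1, 9.6, 9.9 and 8.9 in Het replicates 1 to 4 at day 8, against 3.3 to 7.1 over the 16 later libraries. The Het replicate 1 of day 8 lay inside the later range, and WT libraries of day 8 lay above it. *Hspa1a* gave 0.08 ± 0.12 (adjusted p = 0.62), at an RQ × 1000 of 2.0 to 4.5 in the 24 libraries. *Dnajb1*, which stimulates the HSP70 ATPase, ranged from 75.0 to 90.6 over all 24 libraries, with the smallest SD of log2 RQ among the members (0.075), and gave 0.00 ± 0.04 (adjusted p = 0.98). Both values depend on the scale. With TMM *Dnajb1* was called lower at −0.18 (adjusted p = 0.000224), and with the total count at −0.30 (adjusted p = 1.85e-07). *Hspa1a* then stood at −0.12 and −0.23 and was not called. Relative to the median of all genes, *Dnajb1* lay at −0.16 under each of these 3 scales and *Hspa1a* at −0.08 to −0.09.

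The small HSPs parted. *Cryab*, which encodes αB-crystallin, was the member that rose. Its RQ × 1000 at day 8 was 52.0, 86.2, 92.5 and 74.4 in WT and 48.8, 99.4, 100.9 and 80.5 in Het replicates. At day 14 it was 203.9, 220.9, 222.1 and 198.9 in WT and 200.6, 230.6, 209.8 and 220.3 in Het replicates. At day 21 it was 230.6, 253.6, 238.2 and 227.5 in WT and 240.4, 223.7, 229.6 and 192.3 in Het replicates. Every later library lay above every library of day 8, and replicate 1 was the lowest at day 8 in each genotype. The rise was 1.48 ± 0.11 on the log2 scale, 2.78-fold (adjusted p = 2.06e-10, edgeR), and 1.32 without replicate 1. It was 1.55 in WT and 1.40 in Het cells fitted alone.

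*Cryab* is abundant in skeletal and cardiac muscle, so markers of that tissue were examined. Of the 9 listed, 4 passed the filter on low counts, 3 of which fell and 1 of which rose (*Mb*, myoglobin, by 0.66, and by 0.51 from day 14 to day 21). The summed RQ × 1000 of the list was 21.2 to 37.4 at day 8 and 9.25 to 15.1 later. *Myod1* was at 0 in 23 of 24 libraries, *Ckm* and *Actn2* at 0 in 17 and *Myog* at 0 in 13. The part of muscle RNA, or of the macrophage and osteoclast RNA that rose over the same days, in the rise of *Cryab* was not tested.

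*Hspb1*, which encodes HSP25, and *Hspb8*, which works with BAG3, both fell. *Hspb1* gave −0.42 ± 0.13 on the log2 scale (adjusted p = 0.0085, edgeR). Its RQ × 1000 was 58.3, 40.0, 36.1 and 43.3 in WT and 54.0, 36.0, 38.5 and 40.7 in Het replicates at day 8, against 19.7 to 47.2 later. Replicate 1 was the highest of all 6 groups, and the call was lost without replicate 4 (−0.41, adjusted p = 0.0752) and in WT or Het cells alone (adjusted p = 0.0543 and 0.0757). *Hspb8* gave −0.25 ± 0.06 (adjusted p = 0.00218), from 103.2 to 153.6 at day 8 to 89.0 to 118.5 later. In WT cells at day 8, *Hspb8* stood at 132 ± 57.8 per kb for each 100 of *Cryab*, and at day 21 at 35.7 ± 1.23.

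**Figure D3:**
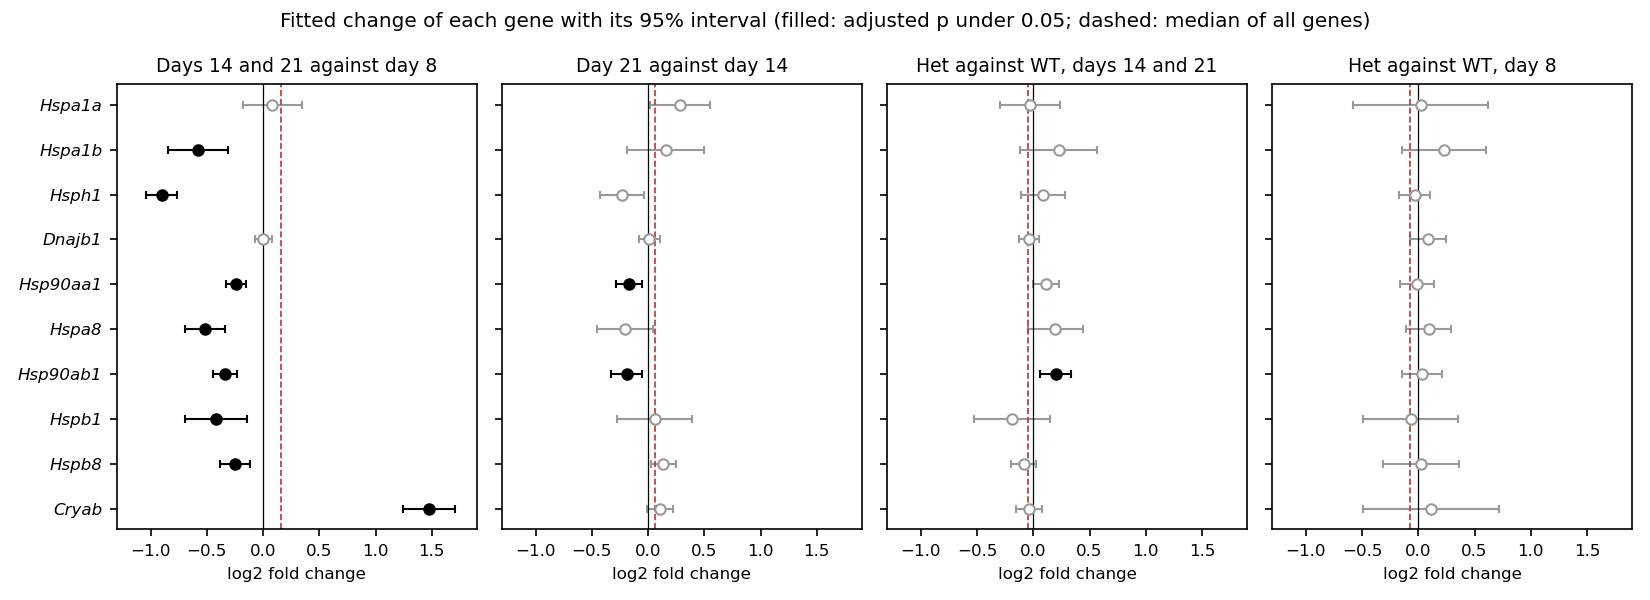
Log2 fold change of each member with its 95% interval in 4 comparisons (days 14 and 21 against day 8, day 21 against day 14, Het against WT at days 14 and 21, and Het against WT at day 8), filled where the adjusted p was under 0.05, with a dashed line at the median of all genes tested. *Cryab* at 1.48 and *Hsph1* at −0.90 are the outermost values, and both lie in the first comparison.

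Between days 14 and 21 the members differed little, and 2 of 10 fell, beside 19.3% of all genes called and 5.94% called lower (2646 genes higher and 1178 lower, and with TMM 2259 and 2156). *Hsp90aa1* gave −0.17 ± 0.05 on the log2 scale (adjusted p = 0.0393, edgeR) and *Hsp90ab1* −0.19 ± 0.06 (adjusted p = 0.0465). Leaving out a single library ended either call in 11 of 16 cases, with adjusted p-values of 0.0524 to 0.0822 for *Hsp90aa1* and 0.0565 to 0.0937 for *Hsp90ab1*. The call of *Hsp90aa1* held without WT day 14 replicate 2 or 3, WT day 21 replicate 1, Het day 14 replicate 4 or Het day 21 replicate 1. That of *Hsp90ab1* held without WT day 14 replicate 3, WT day 21 replicate 1, Het day 14 replicate 3 or 4 or Het day 21 replicate 1. Leaving out replicate 2, 3 or 4 altogether gave adjusted p-values of 0.139 to 0.165 and of 0.130 to 0.197. *Hsph1* gave −0.23 ± 0.09 (adjusted p = 0.0887), and was called with the replicate number as a block (−0.21, adjusted p = 0.0422), with TMM (−0.27, adjusted p = 0.0185), with the total count (−0.28, adjusted p = 0.0401) and without the Het day 14 replicate 2 (−0.27, adjusted p = 0.0432). *Cryab* gave 0.10 ± 0.05 (adjusted p = 0.196) and *Hspb8* 0.13 ± 0.05 (adjusted p = 0.0835). Both were called higher without the Het day 21 replicate 4, *Cryab* at 0.14 (adjusted p = 0.0479) and *Hspb8* at 0.16 (adjusted p = 0.0196). The other 5 members lay between −0.21 (*Hspa8*) and 0.28 (*Hspa1a*).

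The second question is whether OBs that make the mutant procollagen chain differ in these chaperones. At days 14 and 21, 1 of 10 members was called, *Hsp90ab1*, higher in Het cells, beside 16.1% of all 19839 genes tested and 7.26% called higher. The median over the members was 0.03 on the log2 scale, beside −0.05 for all genes. So 1 call among 10 is a share near the background. Over all genes 1440 were called higher and 1762 lower, and with TMM 2463 and 1485.

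*Hsp90ab1* was higher in Het cells by 0.20 ± 0.06 on the log2 scale, or 1.15-fold (95% interval 0.06 to 0.34, adjusted p = 0.0425, edgeR). Its RQ × 1000 at day 14 was 2573, 2104, 2005 and 2178 in WT and 2818, 2525, 2332 and 2318 in Het replicates. At day 21 it was 2097, 1794, 1861 and 1863 in WT and 2432, 2126, 2168 and 2197 in Het replicates. At day 21 every Het library lay above every WT library, and at day 14 the groups overlapped through replicate 1 of WT. Within the same day and replicate number the Het library was the higher in 8 of 8 pairs, by 0.09 to 0.26 on the log2 scale. The labels do not give these pairs, and whether they are independent of one another is not known. A two-sided exact permutation test of the mean RQ, which used neither the pairs nor the day, gave p = 0.0225. With the replicate number as a block the value was 0.20 (adjusted p = 0.011).

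On the housekeeping scale with all libraries the call sat close to its threshold. Leaving out a single library ended it in 12 of 16 cases, with values of 0.17 to 0.21 and adjusted p-values of 0.0531 to 0.0893. It held without replicate 1 of WT at day 14 or 21 and without replicate 3 or 4 of Het at day 14. Leaving out replicate 2, 3 or 4 at both days gave adjusted p-values of 0.231, 0.192 and 0.223, where 0.70% to 1.63% of all genes were called. Leaving out replicate 1 gave 0.21 (adjusted p = 0.00283, edgeR), where 39.36% of all genes were called. With TMM the value was 0.26 (adjusted p = 0.00354, 19.88% of all genes called). With the total count it was 0.30 (adjusted p = 0.00235, 21.65% called). The macrophage and osteoclast list also differed by genotype, with 5 of 7 genes higher in Het cells (*Lyz2* by 1.16 and *Csf1r* by 1.05), while 4 of 6 osteoblast markers were lower (*Bglap* by 1.54 and *Col1a1* by 0.39). The part of either list in the value of *Hsp90ab1* was not tested.

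**Figure D4:**
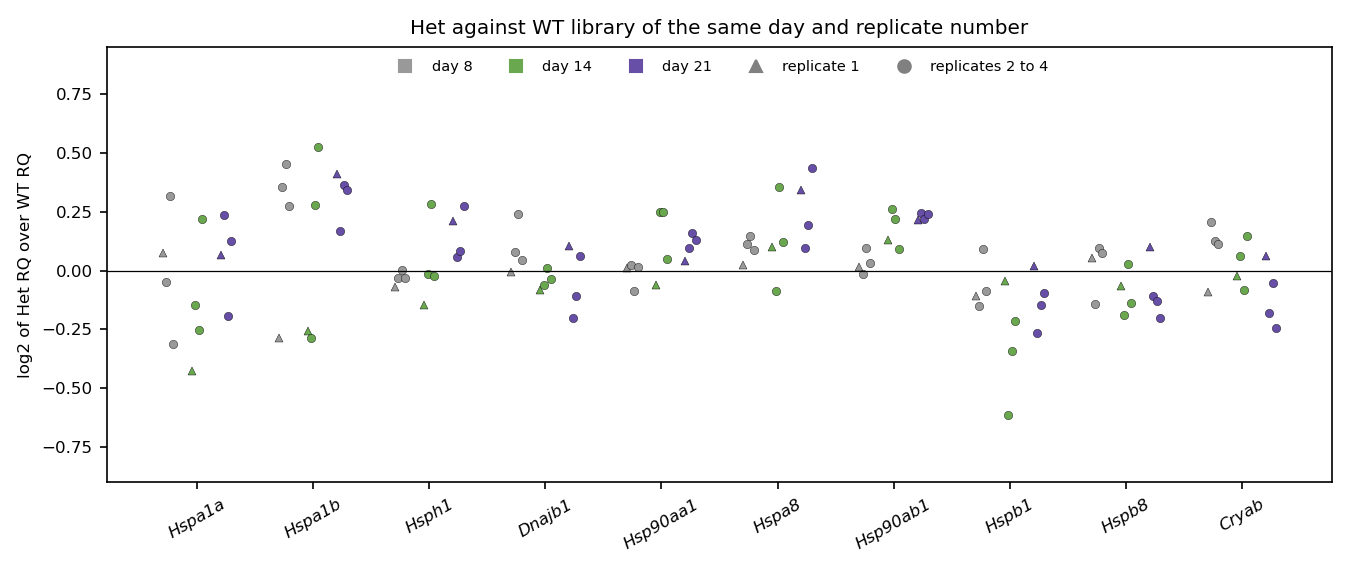
Log2 ratio of Het to WT RQ for each member, 1 point for each pair of libraries with the same day and replicate number, with 0 as no difference. At days 14 and 21 the points of *Hsp90ab1* all lie above 0, at 0.09 to 0.26, and those of *Hspb1* lie below 0 in all pairs but 1.

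The other members were not called at days 14 and 21. *Hspa8* gave 0.20 ± 0.11 (adjusted p = 0.25, edgeR) and was higher in Het cells in 7 of 8 pairs. *Hsp90aa1* gave 0.11 ± 0.05 (adjusted p = 0.175), higher in 7 of 8 pairs. It was called with TMM (0.16, adjusted p = 0.013), with the total count (0.21, adjusted p = 0.0069) and without replicate 1 (0.16, adjusted p = 0.0147). *Hspb1* gave −0.19 ± 0.15 (adjusted p = 0.439), higher in Het cells in 1 of 8 pairs, and was called lower without replicate 1 (−0.27, adjusted p = 0.0163). Without replicate 1, 7582 of 19263 genes were called (39.36%), so a call there was common. With TMM 19.88% of all genes were called, and with the total count 21.65%.

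Because *Hspb1* lay lower and *Hspa8* higher in Het cells, their ratio was taken, after both values were seen and without a test. Per kb, *Hspb1* stood at 8.71 ± 0.94 (SD, n = 8) for each 100 of *Hspa8* in WT cells at days 14 and 21, over 7.71 to 10.05, and at 6.62 ± 1.09 in Het cells, over 5.01 to 8.04. The ranges overlapped. *Hspa1b* gave 0.23 ± 0.16 (adjusted p = 0.36), with an interval of −0.12 to 0.57, and *Hsph1* 0.08 ± 0.09 (adjusted p = 0.582), with one of −0.11 to 0.28. *Hspa1a*, *Dnajb1*, *Hspb8* and *Cryab* lay between −0.09 and −0.03, and their intervals reached −0.29 at the lowest and 0.23 at the highest. With TMM and with the total count *Hspa1a*, *Dnajb1* and *Cryab* turned to values above 0, of 0.07 at the most, and *Hspb8* did so with the total count.

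At day 8 no member was called, as no gene was among the 18222 tested (0%). At an unadjusted p under 0.05, 1817 genes differed, none of them a member, and DESeq2 called 431 genes, again with no member. The members lay between −0.07 ± 0.17 for *Hspb1* and 0.23 ± 0.15 for *Hspa1b* (adjusted p = 0.943 and 0.692, edgeR). *Hspa1b* was called higher in Het cells without the Het replicate 1, at 0.36 (adjusted p = 0.0498), and without replicate 1 of both genotypes, at 0.36 (adjusted p = 0.0318). Over all genes these fits called 1610 and 3432, the latter 18.71% of the 18347 tested. In the deposited libraries the RQ × 1000 of *Hspa1b* was 7.5, 7.5, 7.2 and 7.3 in WT and 6.1, 9.6, 9.9 and 8.9 in Het replicates, so the Het replicate 1 alone lay below the WT libraries.

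The difference between the genotype effects was tested directly. Between the later days as 1 set and day 8, 35 of 20434 genes were called (0.171%) and no member, with values from −0.15 ± 0.21 for *Cryab* to 0.17 ± 0.10 for *Hsp90ab1*. Between day 21 and day 14 no gene was called (0%) by edgeR and 1 by DESeq2, with 473 genes at an unadjusted p under 0.05. The members lay between −0.13 ± 0.10 for *Cryab* and 0.18 ± 0.25 for *Hspa1a*. The call of *Hsp90ab1* at the later days is thus not shown to be particular to them.

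Other chaperone genes were listed by their place in the network. The counts below stand beside the 58.3% of all genes called over time (40.9% higher, 17.4% lower). Between genotypes 16.1% were called, 1440 of 19839 genes higher (7.26%) and 1762 lower. With TMM the split of all calls over time turned to 5601 higher and 6692 lower, and between genotypes to 2463 and 1485. Of 13 HSP90 cochaperones, 8 fell from day 8 to the later days and none rose, with *Fkbp5*, an immunophilin of steroid receptor complexes, at −0.73 ± 0.10, *Stip1*, which links HSP70 to HSP90, at −0.50 ± 0.04 and *Cacybp* at −0.29 ± 0.07 on the log2 scale. At days 14 and 21, 3 of them were higher in Het cells, *Fkbp5* by 0.30 ± 0.08, *Stip1* by 0.19 ± 0.06 and *Fkbp4* by 0.16 ± 0.05. Of 14 subunits of the TRiC chaperonin and prefoldin, which fold actin and tubulin, 6 fell with time and 1 rose, with *Cct3* at −0.40 ± 0.05 and *Pfdn5* at 0.41 ± 0.08. At the later days 4 were higher in Het cells, among them *Cct5* by 0.25 ± 0.06. The medians in the genotype comparison were 0.03 for the HSP90 cochaperones and 0.13 for TRiC and prefoldin, beside −0.05 for all genes.

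**Figure D5:**
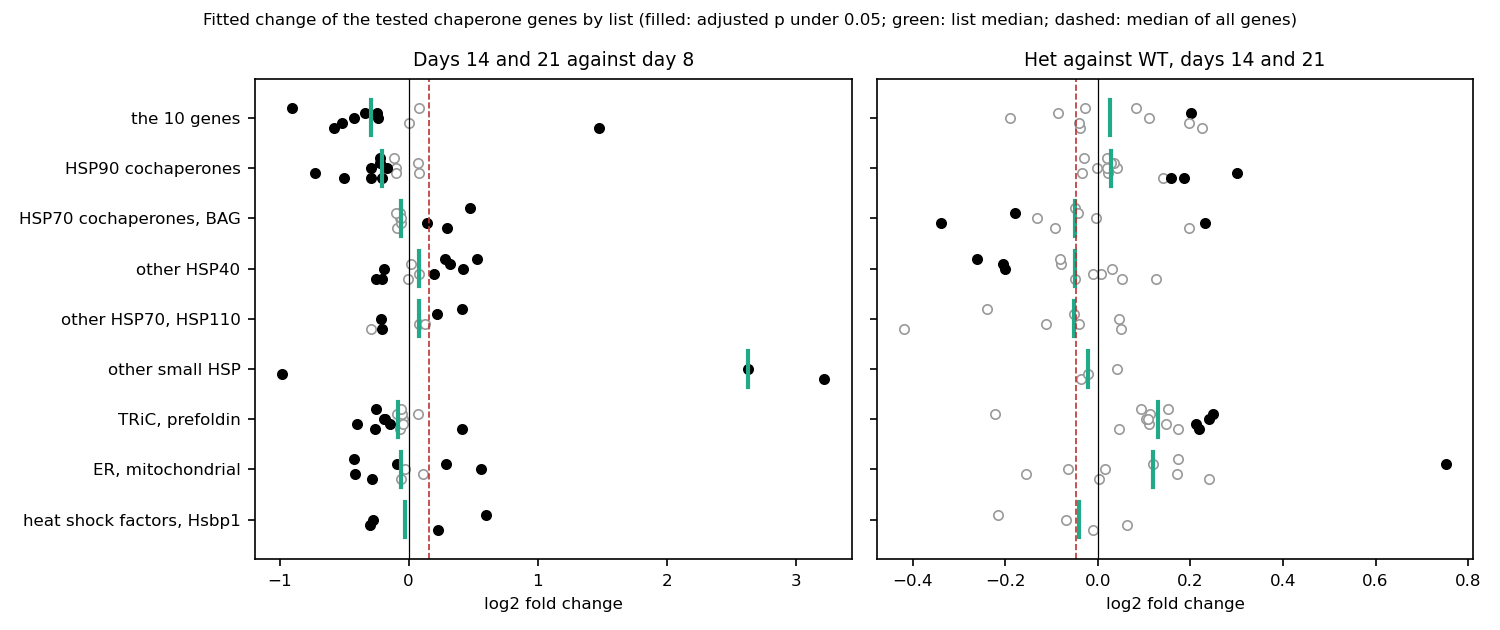
Log2 fold change of each tested gene of the chaperone lists for days 14 and 21 against day 8 and for Het against WT at days 14 and 21, 1 row per list, with the list median in green. All called HSP90 cochaperones lie below 0 in the first comparison, and the small HSP list is the most spread there, from −0.98 for *Hspb6* to 3.22 for *Hspb2*.

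Partners of HSP70 moved in both directions. Of 11 other cytosolic HSP40 genes, 5 rose with time and 3 fell, near the shares of all genes, with *Dnajb4* at 0.53 ± 0.07 and *Dnaja1* at −0.25 ± 0.06 on the log2 scale. In Het cells 3 were lower at the later days, *Dnajb4* by 0.26 ± 0.08, *Dnajb2* by 0.21 ± 0.06 and *Dnaja4* by 0.20 ± 0.06. Of 9 HSP70 cochaperones and BAG genes, 3 rose with time (*Bag5* by 0.48 ± 0.04). Between genotypes *Hspbp1* was higher in Het cells by 0.23 ± 0.05, and *Bag2* and *Bag4* were lower, by 0.34 ± 0.06 and 0.18 ± 0.06. Of the 7 other HSP70 and HSP110 genes, 2 rose and 2 fell with time, and none was called between genotypes.

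The small HSP list held 6 further genes, of which 3 passed the filter on low counts, and all 3 changed with time. *Hspb2* rose by 3.22 ± 0.20 and *Hspb7* by 2.63 ± 0.21 on the log2 scale, and *Hspb6* fell by 0.98 ± 0.12. *Hspb2* is the neighbour that overlaps *Cryab*. It stood at 5.45 ± 1.38 (SD, n = 4) per kb for each 100 of *Cryab* in WT cells at day 8 and at 25.1 ± 2.41 at day 21, so the pair did not keep one ratio. None of the 3 was called between genotypes.

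Of the 5 genes listed for heat shock factors and their binding protein, 4 were tested, and all 4 changed with time, where 58.3% of all genes did. *Hsf1*, the main activator of the inducible members, fell by 0.30 ± 0.05 on the log2 scale and *Hsf2* by 0.28 ± 0.07, while *Hsf4* rose by 0.60 ± 0.07 and *Hsbp1*, an HSF1-binding protein, by 0.23 ± 0.06. None was called between genotypes. These are mRNA levels, and the activity of HSF1 is set largely after translation, which was not measured here.

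Of 9 ER and mitochondrial chaperone genes, 2 rose and 4 fell with time, with *Serpinh1*, the collagen chaperone of the ER, at 0.56 ± 0.06 and *Hspd1* at −0.42 ± 0.05 on the log2 scale. Between genotypes 1 of the 9 was called. *Hspa9*, the mitochondrial HSP70, was higher in Het cells by 0.75 ± 0.07 on the log2 scale at days 14 and 21 (adjusted p = 2.6e-05, edgeR), and its genotype effect was larger there than at day 8 by 0.72 ± 0.14 (adjusted p = 0.0338). The cytosolic HSP70 genes gave 0.20 ± 0.11 (*Hspa8*), 0.23 ± 0.16 (*Hspa1b*) and −0.03 ± 0.12 (*Hspa1a*) in the first of these comparisons. Of 12 immediate early genes, 6 were higher in Het cells at the later days, beside 7.26% of all genes (1440 of 19839, and with TMM 2463 of 19861). Among them were *Atf3* at 0.99 ± 0.19, *Egr2* at 0.70 ± 0.15 and *Ier2* at 0.60 ± 0.09. From day 8 to the later days 7 of the 12 rose and 1 fell, beside 40.9% and 17.4% of all genes, with *Atf3* at 3.60 ± 0.19. The cause of either difference was not tested.

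Genes with the most similar course were found by the root mean square difference of centred log2 RQ over the 24 libraries, among the 14890 genes whose mean count reached 50. For *Hsph1*, whose own SD over libraries was 0.47, these were *Fen1* (0.105), *Gm10143* (0.110) and *Mcm2* (0.113). For *Cryab*, with an SD of 0.77, they were *Plcl2* (0.158), *Pdgfrl* (0.184) and *Pik3ip1* (0.198). For *Hspa1b*, with an SD of 0.43, they were *Trim2* (0.214), *Fbxl7* (0.218) and *Man2a1* (0.227). For *Hsp90ab1*, with an SD of 0.22, they were *Ssrp1* (0.051), *Abcf2* (0.064) and *Cs* (0.069). The libraries share wells, depth and scale with all genes, so these values describe likeness and carry no test.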

How the data were processed

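PolyA RNA was sequenced from TruSeq libraries. The authors deposited raw counts per gene, 1 table per library, for 55335 genes. The submitters' processing notes name cutadapt 2.5, STAR 2.73a, Subread featureCounts 1.6.4 and mm10. The annotation release, strand setting and multi-match rule are not given in the sources used here. PCR duplicates are included. The 10 members and all gene lists were chosen with earlier results of these data known. Counts were tested with edgeR 4.0.16 (R 4.3.3, glmQLFit and glmQLFTest), with the geometric mean of the 4 housekeeping genes in place of the library size, filterByExpr by group and Benjamini-Hochberg adjustment at 0.05. Days 14 and 21 were fitted together with day as a covariate. Alternatives were TMM, DESeq2 1.42.0, other scales, filters, single days and left-out libraries. From other lists, up to 3 called genes per direction with a mean of at least 50 counts were named, by largest change. Unassigned columns numbered 0. Deviations from group means correlated between same-numbered WT and Het libraries in all 12 pairs (0.196 to 0.713, median 0.461). For different numbers the median was −0.123. Deviations cancel out within a group, so positive values for the same number push those for different numbers down, and −0.123 is no independent contrast. Within replicates 2 to 4 the medians were 0.449 and 0.250, with overlapping ranges, so much of the contrast comes from replicate 1. The pairing comes from these data and not from the labels. The tests carry no block, and the fit with the replicate number as a block is an alternative. Every replicate pair differed beyond counting noise (lowest chi-square per degree of freedom 4.776). The edgeR step was tested on simulated counts drawn independently for each library. They lacked the likeness between same-numbered libraries, so that test does not cover it. Proteins were not used here.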

Additional observations from a re-analysis of the deposited data

Results flagged for a closer look

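Each member was examined for a library standing apart in each of the 6 groups of 4, 60 sets of values in all, with Dixon's 95% critical value. Chance gives about 1 such set in 20, and 2 of 60 were found. *Hsp90aa1* in Het cells at day 14 had its lowest RQ × 1000 in replicate 4, at 557.8, below 598.2 to 601.4 in the others. Without that library Het against WT at days 14 and 21 gave 0.12 ± 0.06 on the log2 scale (adjusted p = 0.18, edgeR). *Hspb1* in Het cells at day 21 had its highest value in replicate 1, at 40.19, above 28.04 to 29.58 in the others. Without it the genotype comparison gave −0.25 ± 0.15 (adjusted p = 0.249, edgeR), and days 14 and 21 against day 8 gave −0.45 ± 0.13 (adjusted p = 0.00488). No difference between genotype effects was called for any member.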

How the results depend on the processing

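The members called for days 14 and 21 against day 8 numbered 7 to 9 under all alternatives, and none was called for either difference between genotype effects under any. The changes described here are those of the alternatives run, and the cause was not tested unless fewer libraries or genes enter by construction. For day 21 against day 14, the members called were 0 without *Actg1* or *Sdha* in the scale, with no filter, and in WT or Het cells alone, 3 with the total count, TMM, the size factors or the Wald test of DESeq2, the block or no *Mrfap1* in the scale, 4 with replicate 1 against the others as a covariate, and 0 to 2 over the left-out libraries. For Het against WT at days 14 and 21 they were 2 with TMM, DESeq2's size factors or the total count. They were 0 without *Actg1* or *Sdha*, with no filter, at day 14 or day 21 alone, without the day covariate and with replicate 1 alone (chosen after seeing the data), and 0 to 3 over the left-out libraries. At day 8 the latter gave 0 to 1. By exact permutation of the mean RQ, 5 members had an unadjusted p under 0.05 for day 21 against day 14, as did 5 by edgeR.

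Values near 0 changed sign. Under 3 other scales (TMM, the size factors of DESeq2, the total count, in this order) days 14 and 21 against day 8 gave −0.12, −0.075 and −0.23 for *Hspa1a* and −0.18, −0.14 and −0.30 for *Dnajb1*. Day 14 against day 8 gave −0.062 for *Hspa1a* and −0.0039 for *Dnajb1*, which also gave −0.016 without *Actg1*, −0.022 without *Actb*, −0.063 in Het cells alone and −0.015 to 0.023 over the left-out libraries. For day 21 against day 14, *Dnajb1* gave −0.038, −0.037 and −0.039 under the 3 scales, −0.0089 without *Mrfap1* and −0.011 to 0.030 over the left-out libraries, *Hspb1* −0.010 in WT cells alone and −0.036 to 0.19 over them, and *Hspa1b* −0.0014 to 0.32. For Het against WT at days 14 and 21 the 3 scales gave 0.021, 0.033 and 0.068 for *Hspa1a*, 0.011, 0.0225 and 0.054 for *Dnajb1* and 0.0097, 0.022 and 0.053 for *Cryab*, and the total count gave 0.0070 for *Hspb8*. Day 21 alone gave 0.059 for *Hspa1a*, and day 14 alone 0.026 for *Cryab*. Replicate 1 alone gave −0.012 for *Hsp90aa1*, 0.0115 for *Dnajb1*, 0.017 for *Hspb8* and 0.018 for *Cryab*. The left-out libraries gave −0.11 to 0.042 for *Hspa1a*. At day 8, *Hspb1* gave 0.0059 with DESeq2's size factors, 0.016 with the total count and −0.20 to 0.083 over the left-out libraries. Under the 3 scales *Hsp90aa1* turned from −0.0098 to 0.061, 0.069 and 0.082, and *Hsph1* from −0.033 to 0.043, 0.051 and 0.063. Over the left-out libraries *Hspa1a* gave −0.12 to 0.16, *Hspb8* −0.091 to 0.13, *Cryab* −0.030 to 0.29, *Hsp90aa1* −0.033 to 0.016 and *Hsp90ab1* −0.00077 to 0.073.

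With the replicate number as a block, *Hsp90ab1* gave 0.20 (adjusted p = 0.011, edgeR) for Het against WT at days 14 and 21, and the block changed no call of a member other than that of *Hsph1* between days 14 and 21. Counts over all genes moved by more than 1.5 times as follows. For Het against WT at days 14 and 21, 3202 became 4870 without Het day 21 replicate 1, 2118 without Het day 21 replicate 4, 7582 without replicate 1, 139 to 328 without replicate 2, 3 or 4, 5057 with replicate 1 as a covariate, 1300 without the day covariate, 34 and 368 at day 14 and day 21 alone and 209 with replicate 1 alone. At day 8, 0 became 431 with DESeq2, 285 with the block, 704 with the covariate, 244 without WT replicate 1, 1610 without Het replicate 1 and 3432 without replicate 1. For day 21 against day 14, 3824 became 2327, 1704 and 1697 without replicate 2, 3 or 4 and 69 in Het cells alone, and for days 14 and 21 against day 8, 11911 became 7691 in Het cells alone. For the difference of genotype effects to day 8, 35 became 92 with DESeq2, 928 without replicate 1, 0 to 3 without another number, 10 to 97 without 1 library, and 67 and 73 with the block and the covariate. Higher and lower calls for days 14 and 21 against day 8 were 8351 and 3560, and with TMM 5601 and 6692, with DESeq2's size factors 6145 and 6049, and with the total count 4339 and 8805. For Het against WT they were 1440 and 1762, with TMM 2463 and 1485, and with the total count 3289 and 1008.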
